A study of Mus musculus with 8 samples.

Results

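Cadherins are calcium-dependent adhesion proteins of the cell surface, and 10 genes of this family were examined among the 24346 genes listed for 2D- and 3D-cultured adipose-derived stem cells (ADSCs) of the mouse. The 10 genes were taken by their symbols, namely Cdh1, Cdh2, Cdh3, Cdh4, Cdh5, Cdh6, Cdh11, Cdh13, Cdh15 and Cdh16, and all 10 were above 0 in at least 1 library, so that all were among the 18862 genes tested. The cells were unsorted primary cultures from the gonadal fat of adult male BALB/c mice of wild-type genotype. The 2D group held 4 libraries of conventional monolayer cultures, from mice 2, 3, 4 and 5, and the 3D group held 4 libraries of cultures in Matrigel, a basement membrane gel, from mice 1, 4, 5 and 7. Mice 4 and 5 thus gave 1 library of each kind. Which of the study's media and passages the sequenced cultures had is not given in the sources used here, so medium and passage cannot be told apart from the culture type.

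Classical cadherins join neighbouring cells by binding a cadherin of the next cell, usually of the same kind, and their cytoplasmic tail binds beta-catenin and p120-catenin, which tie it to actin through alpha-catenin. Epithelial cells mainly carry E-cadherin (Cdh1), and mesenchymal cells carry N-cadherin (Cdh2) or OB-cadherin (Cdh11). The exchange of E-cadherin and N-cadherin during transitions between these states is known as the cadherin switch. Among the 10 genes, Cdh1, Cdh2, Cdh3, Cdh4 and Cdh15 encode type I cadherins, and Cdh5, Cdh6 and Cdh11 encode type II cadherins. Cdh13 and Cdh16 are less typical members, since T-cadherin (Cdh13) is held by a lipid anchor without a cytoplasmic tail and Ksp-cadherin (Cdh16) has a short tail that lacks the catenin sites.

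The levels are in FPKM, fragments scaled by transcript length and library depth, after quantile normalization, and all differences are 3D minus 2D on the log2(FPKM + 1) scale with limma's p-values adjusted over the 18862 genes. The depth, estimated from the steps between low values, was between 15.5 M and 18.6 M fragments per library, and 3 fragments of a cadherin gene correspond to between 0.0147 and 0.0649 deposited FPKM. Before the cadherins, the labelled cell type was compared with its markers. In 2D, 8 of 9 stromal genes were at 1 normalized FPKM or more in every library, and their summed level was between 2042 and 4455 normalized FPKM. In 3D, 0 of the 9 reached 1 normalized FPKM in every library, and the sum was between 0.114 and 2.26. Of 7 surface markers of mesenchymal stem cells, 4 were lower in 3D, 1 was higher and 2 did not pass. Over all genes tested, 20.3% were lower and 21.2% higher in 3D. Thy1, Eng and Pdgfra were at or below 0.189 in 3D, but Itgb1, also lower, was still between 179 and 249, and Cd44 was between 62.9 and 115. Ly6a was the higher one, although the cultures overlapped. Its 2D levels were between 24.0 and 165 normalized FPKM. Its 3D level was 58.6 for mouse 1 and between 1429 and 3117 for mice 4, 5 and 7. All 10 epithelial markers were at 1 normalized FPKM or more in every 3D library, with a sum between 2289.9 and 2715 there and between 31.8 and 693 in 2D. The 2D libraries of mice 3 and 4 stood apart from those of mice 2 and 5 by 7 mesothelial genes, whose summed level was 854 and 2148 normalized FPKM against 1.99 and 0.569. Of 5 macrophage genes, Cd14 and Cd68 were higher in 3D, while Adgre1 was listed at 0 there and Ptprc was at most 0.0779. The fifth, Csf1r, did not pass, with 0.264 to 7.65 normalized FPKM in 3D and at most 1.44 in 2D. In bulk RNA, fewer cells of a type and less RNA per cell cannot be told apart.

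Of the 10 cadherin genes, 4 differed between the cultures, with Cdh1 and Cdh16 higher and Cdh2 and Cdh11 lower in 3D. Over all genes tested, 41.5% passed the same threshold, 21.2% with a higher and 20.3% with a lower level in 3D, so a count of 4 in 10 is near the background. What set the 4 genes apart was the size of the difference. By the absolute log2 difference Cdh1 ranked 30th, Cdh16 44th, Cdh2 98th and Cdh11 128th among the 18862 genes. These ranks hold for the pseudocount of 1. With a pseudocount of 0.1, the difference of Cdh16 (10.71) was larger than that of Cdh1 (10.25). The median difference over the 10 genes was 0.04 on the log2 scale, against 0.0012 over all genes. The libraries of the cultures did not overlap for 5 of the 10 genes, these 4 and Cdh4, against 42.5% of all genes. Of the 5, 3 were higher in 3D (21.6% of all genes) and 2 lower (20.9%). Both counts are again near the background.

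**Figure D1:**
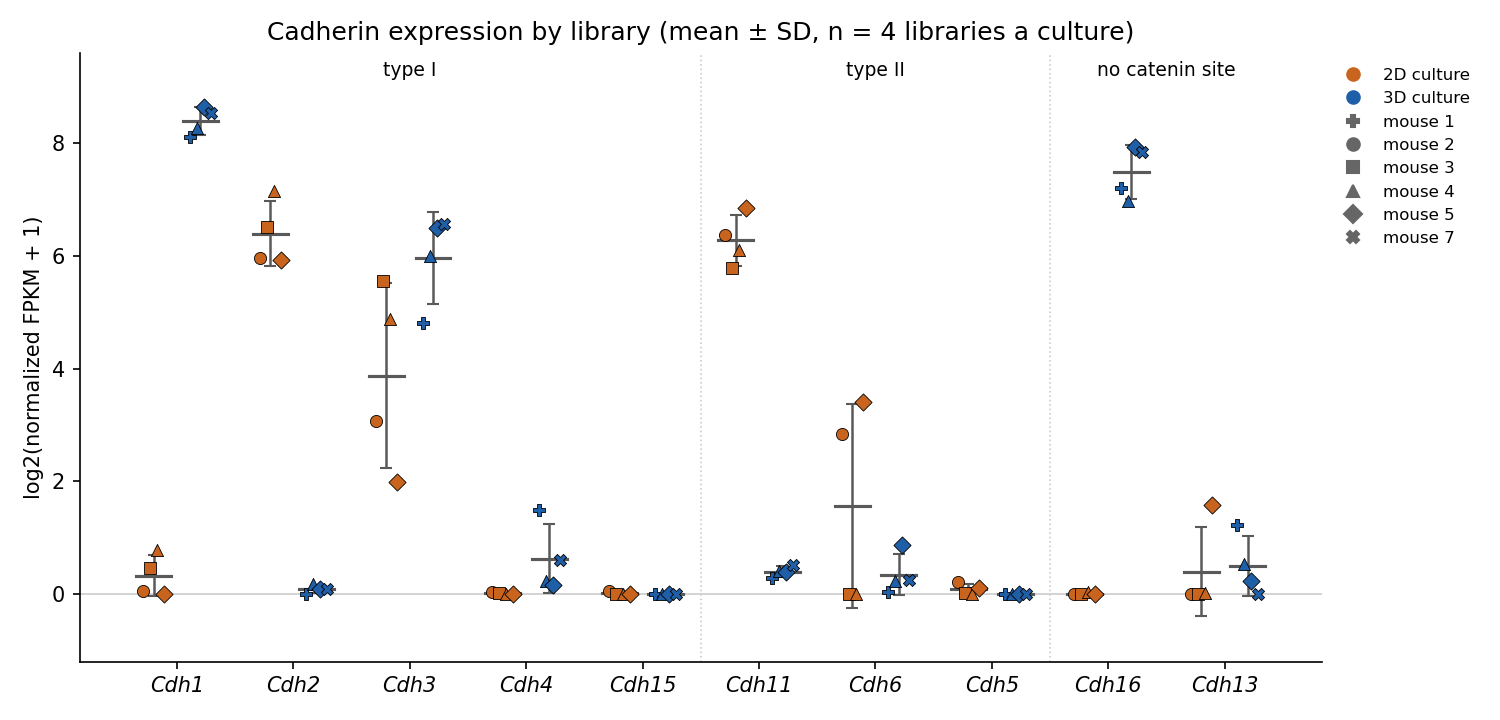
Level of each of the 10 cadherins, as log2(normalized FPKM + 1), in the 4 2D libraries (orange) and the 4 3D libraries (blue), with the mouse shown by the marker and the mean ± SD in grey. Cdh1 and Cdh16 are near 0 in 2D and high in 3D, Cdh2 and Cdh11 show the reverse, and Cdh3 and Cdh6 spread over the 2D libraries.

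In 2D, the Cdh1 levels of mice 2, 3, 4 and 5 were 0.0445, 0.379, 0.716 and 0 normalized FPKM. In 3D, those of mice 1, 4, 5 and 7 were 275.5, 306, 400.6 and 371. Every 3D library thus lay above every 2D library, and E-cadherin was the most abundant of the 10 cadherins in 3D by FPKM. Its mean was 0.285 ± 0.333 in 2D and 338 ± 57.4 normalized FPKM in 3D (SD, n = 4), which gave a log2 difference of 8.06 (standard error 0.20, limma's adjusted p = 2.1e-07). In 2D the gene rested on an estimated 2.1, 26.8, 58 and 0 fragments. The higher counts were in the libraries of mice 3 and 4, in which the mesothelial genes were also high, and the part of those cells in the Cdh1 signal was not tested. Without these libraries the difference was 8.31, and without the 2D libraries of mice 2 and 5 it was 7.57, with adjusted p-values of 6.7e-06 and 1.9e-05 from limma.

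Cdh2 levels in 2D were 61.3, 90.9, 142 and 59.9 normalized FPKM for mice 2, 3, 4 and 5. Those in 3D were 0.00373, 0.135, 0.0733 and 0.0722 for mice 1, 4, 5 and 7. The groups were far apart, and in 3D the N-cadherin transcript rested on an estimated 1.8 to 19.9 fragments. Its mean was 88.5 ± 38.4 in 2D and 0.0710 ± 0.0535 normalized FPKM in 3D (SD, n = 4), which gave a log2 difference of -6.30 with a standard error of 0.27 (limma's adjusted p = 2.6e-06). The highest 2D value was that of mouse 4, so that within 2D the library with the highest Cdh1 also had the highest Cdh2. Without the 2D libraries of mice 3 and 4 the difference was -5.81, and without those of mice 2 and 5 it was -6.60.

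The balance of Cdh1 and Cdh2 was read within each library as the difference of their log2(normalized FPKM + 1) levels. It was -5.90, -6.06, -6.38 and -5.93 in the 2D libraries of mice 2, 3, 4 and 5. It was 8.11, 8.08, 8.55 and 8.44 in the 3D libraries of mice 1, 4, 5 and 7. The sign was therefore the same within each culture type and opposite between them, and the mean moved from -6.07 ± 0.22 to 8.29 ± 0.23 (SD, n = 4). On the deposited values the means were -6.30 and 7.98. These are descriptions of a pair of member genes, without a test.

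Cdh3, which encodes P-cadherin of basal epithelial and mesothelial layers, had 2D levels of 7.42, 46.2, 28.5 and 2.98 normalized FPKM in mice 2, 3, 4 and 5. The 3D levels were 27.0, 63.1, 89.2 and 93.7 in mice 1, 4, 5 and 7. The groups overlapped, because the 3D library of mouse 1 lay below the 2D libraries of mice 3 and 4. The mean was 21.3 ± 19.98 in 2D and 68.2 ± 30.6 in 3D (normalized FPKM, SD, n = 4), a log2 difference of 2.09 with a standard error of 0.81, which did not pass (limma's adjusted p = 0.0742). The call depended on the 2D libraries of mice 3 and 4. Without both, the difference was 3.37 with limma's adjusted p = 0.00657, and without those of mice 2 and 5 it was 0.71 with an adjusted p of 0.345. Without the 2D library of mouse 3 alone, the adjusted p was 0.0292 from limma. When the fit was limited to the more abundant genes (mean from 1 FPKM upwards) it was 0.04997. Over all genes, 42.1% passed without the 2D libraries of mice 3 and 4 and 33.9% without those of mice 2 and 5. P-cadherin RNA was at 2.98 normalized FPKM or more in all 8 libraries.

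The other type I genes were low. Cdh4, or R-cadherin of neural and renal tissue, was at or under 3 fragments in all 4 2D libraries. The 3D levels of mice 1, 4, 5 and 7 were 1.82, 0.183, 0.122 and 0.520 normalized FPKM. Each 3D library was above each 2D library, and the log2 difference of 0.61 (standard error 0.27) did not pass, with limma's adjusted p = 0.110. With a pseudocount of 0.1 the adjusted p was 0.0196, and without the 3D library of mouse 1, the highest, the difference was 0.30 with an adjusted p of 0.0430. Cdh15, or M-cadherin of myoblasts and satellite cells, had a value of 0 throughout 3D and values of 0.0372, 0, 0.00598 and 0 normalized FPKM in 2D, an estimated 1.2 fragments at most. At this depth no difference could be detected. Myod1, the master regulator of the muscle lineage, was listed at 0 in every library. Of the 7 genes of the muscle list, 2 were lower and 0 higher in 3D, against 20.3% and 21.2% of all genes. These were Acta1 and Des, both listed at 0 throughout 3D. In 2D, Des was between 0.189 and 6.66 normalized FPKM, and Acta1 was between 2.21 and 100.04, with the highest value in mouse 2. Cdh15 rested on the same estimated count of 1.15 fragments in the 2D libraries of mice 2 and 4.

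Among the type II genes, Cdh11 encodes OB-cadherin of osteoblasts and other mesenchymal cells. Levels in 2D were 82.2, 54.4, 67.6 and 115 normalized FPKM for mice 2, 3, 4 and 5, and levels in 3D were 0.218, 0.331, 0.308 and 0.428 for mice 1, 4, 5 and 7. All 2D libraries lay above all 3D libraries, and the 3D values varied little and rested on an estimated 45.6 to 60.6 fragments, above the level of 3 fragments. Its mean was 79.8 ± 26.1 in 2D and 0.321 ± 0.0863 normalized FPKM in 3D (SD, n = 4), which gave a log2 difference of -5.88 (standard error 0.22, limma's adjusted p = 1.2e-06). In 2D, Cdh11 was highest in mice 5 and 2, whereas Cdh2 was highest in mice 4 and 3. Without the 2D libraries of mice 3 and 4 the difference was -6.16, and without those of mice 2 and 5 it was -5.40.

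Cdh6, which encodes K-cadherin of the developing kidney, split the 2D libraries. It was at 6.14 and 9.605 normalized FPKM in mice 2 and 5, at 0.00888 in mouse 4 and listed at 0 in mouse 3. In 3D it was at 0.0329, 0.178, 0.831 and 0.185 normalized FPKM in mice 1, 4, 5 and 7. The 3D values thus lay between the high and the low 2D values, and the log2 difference of -1.21 (standard error 0.82) did not pass (limma's adjusted p = 0.277). Within mouse 4 the 3D library was higher than the 2D library by 0.22 on the log2 scale, and within mouse 5 it was lower, with a difference of -2.53. Without the 2D libraries of mice 3 and 4 the difference was -2.79 with limma's adjusted p = 0.00110. Without those of mice 2 and 5 it was 0.37 with an adjusted p of 0.298. Cdh6 was therefore low in the 2D libraries in which the mesothelial genes and Cdh3 were high, and the part of mesothelial cells in either value was not tested.

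**Figure D2:**
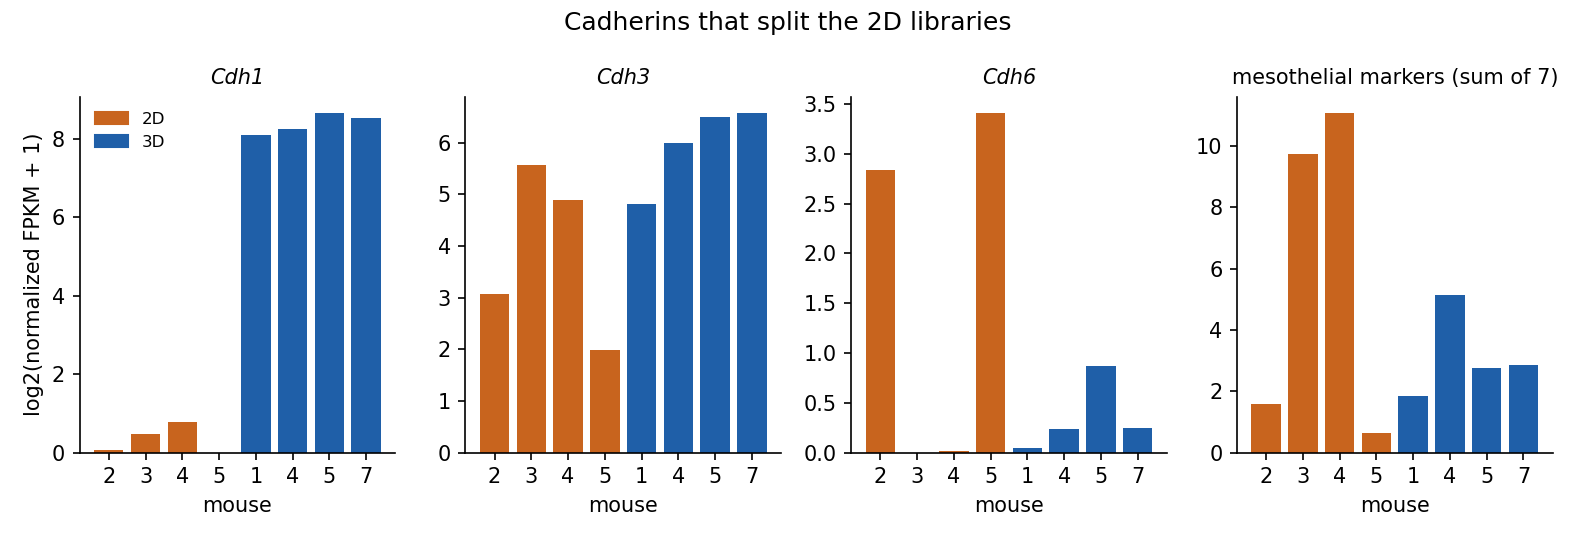
Levels of Cdh1, Cdh3 and Cdh6 and the summed level of the 7 mesothelial markers, as log2(normalized FPKM + 1), in each library, with 2D in orange and 3D in blue and the mouse number below each bar. The 2D libraries of mice 3 and 4 are high for the mesothelial markers and Cdh3 and near 0 for Cdh6. Those of mice 2 and 5 are low for the mesothelial markers, lower for Cdh3 and higher for Cdh6.

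Cdh5 encodes VE-cadherin, the adherens junction cadherin of endothelium. In 2D its levels were 0.164, 0.0144, 0 and 0.0736 normalized FPKM for mice 2, 3, 4 and 5, an estimated 7.4 fragments at most, and in 3D all 4 values were 0. The log2 difference of -0.09 (standard error 0.05) did not pass (limma's adjusted p = 0.185), and it passed only without the 2D libraries of mice 3 and 4 (adjusted p = 0.0188). Of the 8 endothelial genes of a marker list, 0 were at 1 normalized FPKM or more in all libraries of either culture. Tie1 was listed at 0 throughout, Pecam1 was at most 0.158, and the list summed to 4.18 to 9.18 normalized FPKM in 2D and 1.18 to 2.94 in 3D. Tie1, Pecam1 and Cldn5 were thus near 0 beside VE-cadherin, whereas Kdr was at 3.92 and 6.34 normalized FPKM for mice 3 and 4 in 2D, and Egfl7 was between 0.877 and 4.21 in all 8 libraries.

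Cdh16, or Ksp-cadherin of renal tubules and genital ducts, was listed at 0 in the 2D libraries of mice 2, 3 and 5 and was at 0.0285 normalized FPKM in that of mouse 4, an estimated 2.6 fragments. In 3D, the levels of mice 1, 4, 5 and 7 were 146, 124, 243 and 229 normalized FPKM. The 3D libraries lay far above the 2D libraries, with those of mice 5 and 7 above those of mice 1 and 4. The mean in 3D was 186 ± 59.3 normalized FPKM (SD, n = 4), and the log2 difference was 7.48 (standard error 0.22, limma's adjusted p = 4.9e-07). Because 2D was at or under 3 fragments, this difference depends on the pseudocount. With a pseudocount of 0.1 it was 10.71, and the differences of the other 3 called genes were larger too, at 10.25 for Cdh1, -8.98 for Cdh2 and -7.54 for Cdh11. Of 9 marker genes of duct and renal tubule epithelium, 2 rose in 3D, against 21.2% of all genes, so the count is near the background. Pax8 rose from at most 0.0249 to between 28.7 and 40.2 normalized FPKM, and Pax2 from at most 0.0191 to between 6.09 and 10.8. Umod and Lhx1 were listed at 0 in every library, and Aqp2, Slc12a1 and Slc12a3, transporters and channels of mature renal tubules, were at or below 0.101 normalized FPKM. The other 2 genes did not pass, with Lrp2, an endocytic receptor of the proximal tubule, between 1.33 and 22.5 in 2D and between 2.18 and 19.8 in 3D, and Emx2 between 11.9 and 23.4 in 2D and between 19.4 and 30.9 in 3D. Of 7 epididymal marker genes, Lcn5, Lcn9 and Spint4 were listed at 0 in every library, and the summed level was at most 0.943 in 2D and 4.12 normalized FPKM in 3D.

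Cdh13 encodes T-cadherin, a receptor for adiponectin. In 2D it was at 1.99 normalized FPKM in mouse 5, at 0.0134 in mouse 4 and listed at 0 in mice 2 and 3. In 3D it was at 1.36, 0.456, 0.178 and 0 normalized FPKM in mice 1, 4, 5 and 7. The groups overlapped fully, with a log2 difference of 0.10 (standard error 0.42, limma's adjusted p = 0.857), and mice 4 and 5 differed in opposite directions, by 0.52 and -1.34 on the log2 scale. Adipoq, which encodes its ligand, was listed at 0 in every library.

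When the deposited FPKM of the 10 genes were added up within each library, the sum was 224 ± 34.04 in 2D and 477 ± 95.3 in 3D (SD, n = 4), and all 3D libraries lay above all 2D libraries. Cdh2 and Cdh11 together made up between 76.0% and 94.2% of the sum in 2D and between 0.0741% and 0.128% in 3D. Cdh1, Cdh3 and Cdh16 made up between 1.07% and 23.9% in 2D and between 98.8% and 99.8% in 3D. Cdh1 alone held 57.8% ± 4.62 and Cdh16 30.2% ± 4.22 of the 3D sum (SD, n = 4). In 2D the share of Cdh3 ranged from 1.07% in mouse 5 to 23.8% in mouse 3. These shares compare levels per length of transcript.

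**Figure D3:**
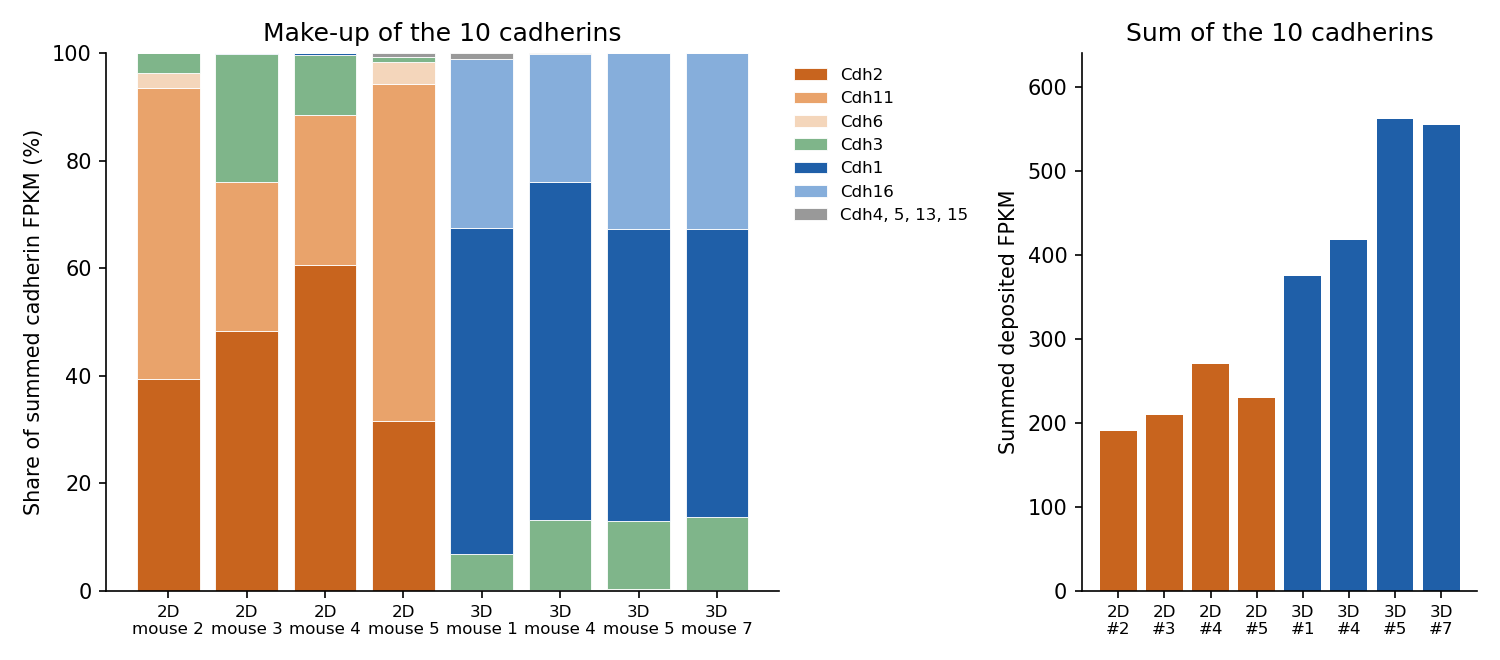
Share of each cadherin in the summed deposited FPKM of the 10 genes (left, percent) and that sum (right, FPKM), in each library. Cdh2 and Cdh11 fill 76.0% to 94.2% of the sum in the 2D libraries, and Cdh1, Cdh16 and Cdh3 fill 98.8% to 99.8% in the 3D libraries.

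By mean level in 2D, the order was Cdh2, Cdh11, Cdh3, Cdh6, Cdh13, Cdh1, Cdh5, Cdh4, Cdh15 and Cdh16. Cdh2 and Cdh11 did not differ beyond their spread, since each was the higher of the pair in 2 of 4 libraries. Of the neighbours in this order, only Cdh11 and Cdh3 had ranges that did not overlap. In 3D the order began with Cdh1, Cdh16 and Cdh3, whose ranges did not overlap with one another or with the next gene. Cdh4, Cdh13, Cdh11, Cdh6 and Cdh2 followed with means between 0.662 and 0.0710 normalized FPKM, and each overlapped with its neighbour in this order, although Cdh11 lay above Cdh2 in all 4 libraries without overlap, and Cdh5 and Cdh15 were listed at 0.

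In GENCODE M21, the annotation of the GRCm38 (mm10) genome, 7 of the 10 genes lie on chromosome 8. Their order is Cdh11, Cdh5, Cdh16, Cdh3, Cdh1, Cdh13 and Cdh15. Cdh3 (plus strand, from 106510891 to 106557297) and Cdh1 (plus strand, from 106603351 to 106670246) are neighbours with a gap of 46.1 kb, and Cdh16 (minus strand, from 104601911 to 104624396) lies 1886 kb before Cdh3. These are the 3 cadherins that were abundant in 3D. However, Cdh11 (minus strand, from 102632095 to 102785642) is on the same chromosome and was lower in 3D, and Cdh5 lies between Cdh11 and Cdh16 and was near 0 in all libraries. Cdh2 is on chromosome 18, Cdh4 on chromosome 2 and Cdh6 on chromosome 15. The exons of the 10 genes do not overlap those of any other annotated gene.

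The catenins and plaque proteins bind the cadherin tails and link them to actin. Of 14 genes of this list, 7 were higher and 2 lower in 3D, against 21.2% and 20.3% of all genes, and 5 did not pass, with a median log2 difference of 0.72 against 0.0012 over all genes. Ctnnb1, which encodes beta-catenin, was at 173 ± 23.3 in 2D and higher in 3D, at 300.1 ± 34.8 normalized FPKM (SD, n = 4), by a log2 difference of 0.79 (standard error 0.13, limma's adjusted p = 0.00211). Jup, which encodes the related plakoglobin, rose from 26.1 ± 3.21 to 42.1 ± 9.38 normalized FPKM. The direction or call of several members differed between scalings, and so did the count of the list. On the deposited values 5 of its genes were higher and 4 lower, where 4279 and 4069 of all genes were. With upper quartile scaling 6 were higher and 4 lower, where 4521 and 3878 of all genes were. The excess of higher genes was thus smaller under these scalings, and the median of 0.72 holds for the quantile normalized levels only. Quantile normalization moved the difference upwards by a median of 0.45 on the log2 scale for all genes at a mean of 50 FPKM or more, and by 0.08 for those between 10 and 50 FPKM. On the deposited values the difference was 0.25 for Ctnnb1 and 0.40 for Jup, and neither passed (limma's adjusted p = 0.0567 and 0.0818). Jup also did not pass without either pair of 2D libraries (adjusted p = 0.0672 without mice 3 and 4 and 0.0791 without mice 2 and 5). Ctnna1, which encodes the alpha-catenin of epithelia and stroma, was at 134 ± 18.7 in 2D and 159 ± 13.7 normalized FPKM in 3D and did not pass (adjusted p = 0.119). Its sign turned on the deposited values, where the difference was -0.33 and limma's adjusted p was 0.0130, while without the 2D library of mouse 3 it was higher in 3D (adjusted p = 0.0355). Ctnnd1, which encodes p120-catenin, was at 112 ± 7.96 and 98.5 ± 11.7 normalized FPKM, with a difference of -0.19 (adjusted p = 0.178), and of -0.76 on the deposited values (limma's adjusted p = 0.00116).

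Larger differences were found among the less abundant members of the p120 family and the plaque. Ctnnd2, or delta-catenin, was at 2.73, 0.173, 0.188 and 2.41 normalized FPKM in 2D and at 23.4, 10.7, 15.2 and 11.9 in 3D, a log2 difference of 2.93 (standard error 0.47, limma's adjusted p = 0.00192). Pkp4, which encodes plakophilin 4, rose from 12.4 ± 4.70 to 43.5 ± 13.2 normalized FPKM, and Plekha7, which encodes a p120 partner of the apical junction, rose from between 0.484 and 7.75 to between 18.8 and 25.1. Afdn, listed under its older symbol Mllt4 and encoding the nectin linker afadin, rose by 1.59 on the log2 scale (standard error 0.30). Arvcf rose by 1.53 (standard error 0.47, limma's adjusted p = 0.0333), and the call was lost without any single library other than the 2D libraries of mice 3 and 4, with adjusted p-values up to 0.0828. In contrast, Vcl, which encodes the actin linker vinculin, was lower in 3D, at 65.1 ± 6.14 against 245 ± 43.2 normalized FPKM (SD, n = 4), with a log2 difference of -1.88 (standard error 0.13, limma's adjusted p = 3.1e-05). Lima1, another actin linker of the complex, fell from 98.3 ± 6.83 to 69.8 ± 6.02. With only mice 4 and 5, where 17.8% of all genes passed, Jup and Vcl passed and the other 7 of these 9 genes did not. The neuronal and heart alpha-catenins Ctnna2 and Ctnna3 were at most 0.0710 normalized FPKM in any library.

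**Figure D4:**
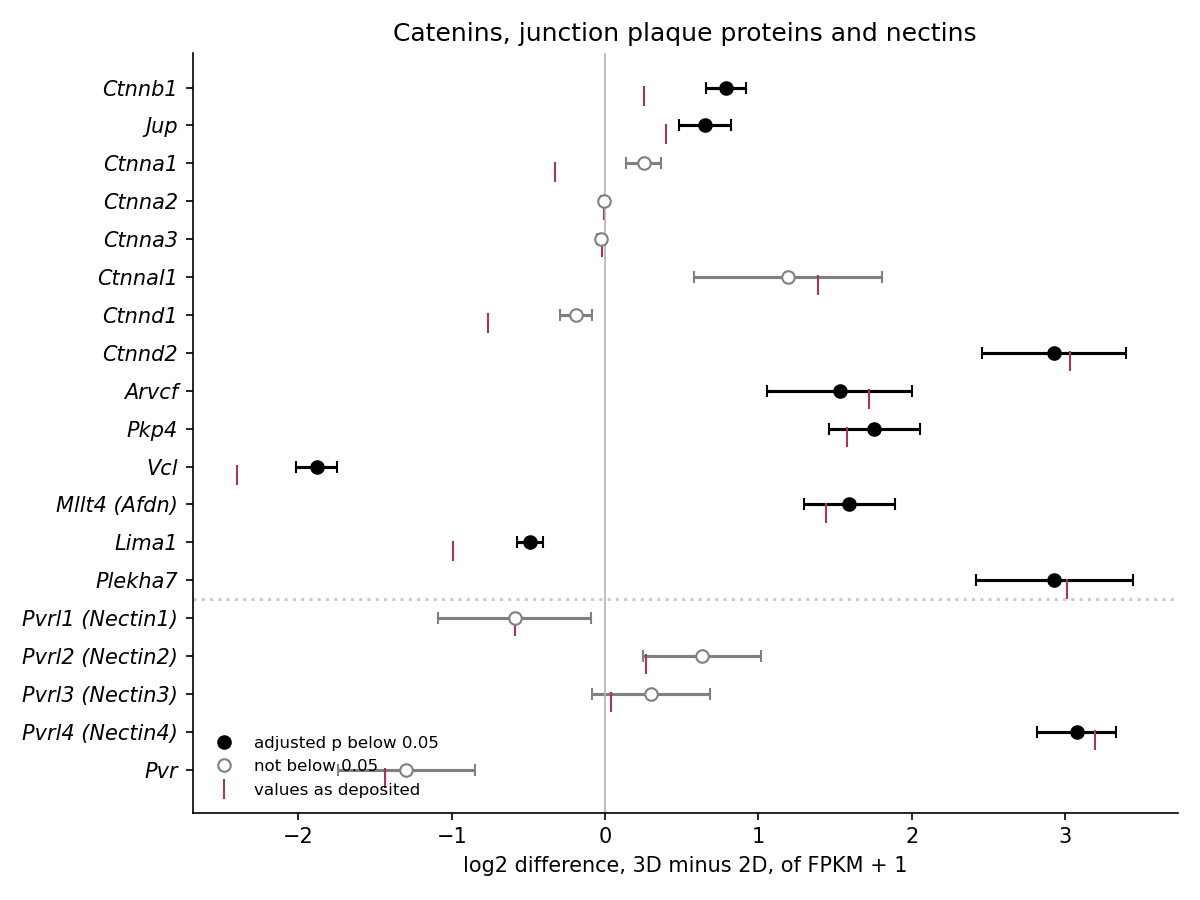
Fitted log2 difference (3D minus 2D, points with the standard error) of 14 catenin and plaque genes and, below the dotted line, the nectin genes and Pvr, with filled points for an adjusted p below 0.05 and red ticks for the difference on the deposited values. Among the filled points, only those of Vcl and Lima1 lie below 0. The ticks of Ctnnb1, Ctnna1, Ctnnd1, Vcl and Lima1 lie to the left of their points.

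Nectins are adhesion proteins that meet the cadherins at the same junctions. Of 5 genes, the nectins and Pvr, 1 passed, against 41.5% of all genes, so the count is not above the background. Nectin4, listed as Pvrl4, was at 0.831, 0.0168, 0.148 and 0.302 normalized FPKM in 2D and at 14.6, 10.4, 7.93 and 7.91 in 3D, a log2 difference of 3.08 (standard error 0.26, limma's adjusted p = 7.8e-05). Pvr, the poliovirus receptor, was at 36.9 ± 20.2 in 2D and 14.0 ± 6.45 normalized FPKM in 3D and missed the threshold (limma's adjusted p = 0.0505). It passed in 8 of the 18 alternative fits, among them those on the deposited values (0.0401) and without the 2D libraries of mice 3 and 4 (0.0206), and over all 18 the adjusted p was between 0.0206 and 0.289. Nectin1, Nectin2 and Nectin3 overlapped between the cultures. Among 7 genes of cadherin maturation and turnover, 1 was higher and 1 lower in 3D, against 21.2% and 20.3% of all genes. Neither count is above the background. The other 5, with Furin and Adam10 among them, did not pass. Ncstn, a subunit of gamma-secretase, rose by 0.38 on the log2 scale. The sign of Ncstn turned on the deposited values, where the difference was -0.06, and its call was lost in 5 of the 8 fits that left out a library, those without the 2D library of mouse 2, 4 or 5 or the 3D library of mouse 5 or 7 (limma's adjusted p up to 0.0686).

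Of 10 transcription factors listed here as repressors of Cdh1, 8 were lower in 3D and 0 were higher, against 20.3% and 21.2% of all genes. Their median log2 difference was -2.79, against 0.0012 over all genes. Zeb2 was at 19.9 ± 1.61 in 2D and 0.0160 ± 0.0147 normalized FPKM in 3D (SD, n = 4), with a log2 difference of -4.36 (standard error 0.12, limma's adjusted p = 4.1e-07), and Zeb1, Twist2 and Snai2 had differences of -4.07, -3.91 and -3.58. Tcf3 and Gsc did not pass, and Gsc was at most 0.0969 normalized FPKM. Of 10 epithelial transcription factors, 9 rose, against 21.2% of all genes, and Klf4 did not pass. Ehf and Elf3, both ETS factors, had values of 0 throughout 2D and stood at 124 ± 22.2 and 114 ± 35.1 normalized FPKM (SD, n = 4) in 3D. Grhl2, a direct activator of Cdh1, stood at 29.5 ± 7.15 in 3D and was at most 0.0273 normalized FPKM in 2D. Beside them, 8 of the 9 stromal markers fell and 9 of the 10 epithelial markers rose in 3D, and their part in these values was not tested.

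Beyond the 10 members, 13 other genes named Cdh and a number were listed, of which 3 were at 0 in every library. Of the 10 tested, 2 were higher and 1 lower in 3D, against 21.2% and 20.3% of all genes, so neither count is above the background. Cdh24 rose from 0.932 ± 0.497 to 2.03 ± 0.256 normalized FPKM (SD, n = 4, limma's adjusted p = 0.0347), and Cdh17, or LI-cadherin, rose from 0.535 ± 0.562 to 2.06 ± 0.911 with libraries that overlapped (adjusted p = 0.0453). Cdh26 ranged from 0.197 to 1.28 normalized FPKM in 2D and was listed at 0 in 3D (limma's adjusted p = 0.0308). Cdh10 levels in 2D were 5.84, 0.0978, 0.384 and 2.59 normalized FPKM for mice 2, 3, 4 and 5, all above the 0 listed in 3D, and did not pass (limma's adjusted p = 0.0930). It passed with a pseudocount of 0.1 (0.0203), without the 2D library of mouse 3 (0.0320), and without those of mice 3 and 4 (0.00119) or of mice 2 and 5 (0.0467). It was highest in the 2D libraries of mice 2 and 5, as Cdh6 was. The 3 calls were weak. When each library was left out in turn, limma's adjusted p for Cdh17 reached 0.107, and its call held only without the 2D library of mouse 2 or the 3D library of mouse 7. That of Cdh24 reached 0.0782, and its call held only without the 2D library of mouse 3, 4 or 5. That of Cdh26 reached 0.0694, and its call held only without the 2D library of mouse 2, 3 or 5.

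Since mice 4 and 5 gave both culture types, the mouse was also fitted as a block, which leaves 1 residual degree of freedom. The differences were 8.07 for Cdh1, 7.43 for Cdh16, -6.40 for Cdh2 and -6.08 for Cdh11, with unadjusted p-values between 0.00196 and 0.00365. Limma's adjusted p was 0.111 for each of the 4, and 0 of the 18862 genes passed under the block, while 27.7% had an unadjusted p below 0.05. Of the genes in the lists of partners, regulators and other cadherins, 0 passed. Within mouse 4 the log2 difference of the 3D and 2D libraries was 7.49 for Cdh1, 6.93 for Cdh16, -6.98 for Cdh2 and -5.69 for Cdh11. Within mouse 5 it was 8.65, 7.93, -5.83 and -6.47. With only the 4 libraries of mice 4 and 5, without a block, the 4 genes passed, with adjusted p-values between 0.00698 and 0.0106 from limma.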

How the data were processed

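Total RNA of 8 primary ADSC cultures was depleted of ribosomal RNA and sequenced as directional paired-end libraries. The authors trimmed the reads, mapped them with TopHat (build mm10 per the submitters' processing notes) and computed with Cufflinks the deposited FPKM values per gene, 1 file per library. The annotation used is not given in the sources used here. Quantile normalization is named in the methods of the study, but the deposited values differ in their upper quartiles (10.7 to 11.4 FPKM), so it was applied here.

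Genes at 0 in every library (5484) were left out, and the other 18862 were quantile normalized, converted to log2(FPKM + 1) and fitted with limma 3.58.1 in R 4.3.3 (empirical Bayes with an intensity trend, 3D against 2D, no covariates), with Benjamini-Hochberg adjustment over all of them and a threshold of 0.05. The fit was also run on simulated data with independent noise in each library. Those data held no pairing by mouse and no split of the 2D libraries, so they cannot speak to either. The labels give each mouse and culture. Nothing says that a mouse gave several independent cultures, so the p-values measure the spread between these libraries. Mice 4 and 5 are paired by animal. The deviations of their 2D and 3D libraries correlated at -0.05 and -0.11 over 12577 genes.

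Depth was estimated from low FPKM values of single-transcript genes of at least 3000 nt in GENCODE M21, where between 64.9% and 82.9% of the low values per library lay within 0.1 fragments of a whole number. Limits from it cover counting error only. Positions are from GENCODE M21. The members, gene lists and tests were chosen with earlier results of these data known. Named beside the 10 members were the catenins and nectins, the other cadherins, and from other lists the genes of the largest differences or at 0, together with single genes (Ncstn, Furin, Adam10, Tcf3, Klf4, Acta1, Ly6a, Cd14, Cd68, Adgre1, Ptprc, Pecam1, Kdr, Egfl7, Cd44, Itgb1, Csf1r, Lrp2, Emx2, Aqp2, Slc12a1, Slc12a3) chosen after their values were seen. Some genes of these lists are not reported here. Alternative fits used the deposited values, upper quartile scaling, no trend, only the genes whose mean reached 1 FPKM, 0.1 as the pseudocount, a block or a random effect for the mouse, only the libraries of mice 4 and 5, or all libraries except 1. The fits without the 2D libraries of mice 3 and 4, or 2 and 5, were chosen after seeing the data.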

Additional observations from a re-analysis of the deposited data

Results flagged for a closer look

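Single libraries stood far from the other 3 of their culture in 7 of 55 groups of 4 libraries examined, which covered the 10 cadherins, the catenins and the nectins. The usual rate of about 1 in 20 groups by chance does not apply to groups in which the other values are at or near 0, so the number of groups says nothing here. For Cdh13, the 2D culture of mouse 5 had 1.99 normalized FPKM and the other 2D cultures at most 0.0134. Cdh15 was at 0.0372 in the 2D library of mouse 2 and Cdh16 at 0.0285 in the 2D library of mouse 4, both of them at under 3 estimated fragments. Cdh15 had the same estimated 1.15 fragments in the 2D library of mouse 4, so its gap came from the normalization of values at the floor. For Ctnna2, 0.0313 normalized FPKM was found for mouse 3 in 2D and 0.00424 for mouse 1 in 3D, against 0 in the others of each culture. Ctnna3 was at 0.0710 in the 2D library of mouse 5. The Arvcf level of mouse 1 in 3D was 17.5 normalized FPKM, and the other 3D cultures ranged from 8.73 to 9.85.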

How the results depend on the processing

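Cdh1 and Cdh16 stayed higher and Cdh2 and Cdh11 lower in 3D under each of the 18 alternatives, and these 4 calls were lost only with the mouse as a block, where 0 cadherins passed in either direction and 0 genes were higher and 0 lower overall. This fit pairs mice 4 and 5 and leaves 1 residual degree of freedom. With only mice 4 and 5, 1788 genes were higher and 1432 lower, from fewer libraries, against 4000 and 3823. Without the 2D libraries of mice 3 and 4, 4 cadherins were lower, with Cdh5 and Cdh6 added, and the cause was not tested. With each library left out in turn, the difference of Cdh1 was between 7.88 and 8.21, of Cdh16 between 7.37 and 7.68, of Cdh2 between -6.40 and -6.02 and of Cdh11 between -6.02 and -5.63. The mouse as a random effect (correlation -0.04) changed no call of a cadherin. In the filter at a mean of 1 FPKM, 4 of the cadherins (Cdh4, Cdh5, Cdh13 and Cdh15) got no value. For these and for Cdh16 in 2D, the depth limits what a difference can show.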
